A study of Mus musculus with 8 samples.

Results

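Oligodendrocytes wrap axons in myelin, a stack of lipid-rich membrane that speeds conduction, and they supply those axons with metabolites. The 34 genes described here cover myelin proteins, enzymes of myelin lipids, transcription factors of the lineage and other genes that oligodendrocytes express strongly. They were named as a list and matched by gene symbol to the probe sets of the array, taking the probe set with the highest mean over all arrays. Of the 34 genes, 33 had a named probe set, of 19505 genes in all, and Evi2a was not analysed here. All 33 passed the filter on dim genes, which kept 14628 genes, and each of them had 1 probe set.

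All 8 hippocampi came from animals designated B6.Cg-Tg(APPswe)E1-2Dbo/J, a transgene for mutant amyloid precursor protein, and were taken at 18 to 20 months of age, after the Morris water maze, a test of spatial memory. The labels call the memory of 4 mice impaired and that of the other 4 intact, number the mice as biological replicates and give 1 array of total RNA for each. All 8 mice carried the transgene, so that no group without it was compared. The promoter of the transgene is not given in the sources used here. Values are log2 expression summarized by RMA (robust multi-array averaging), where a difference of 1 is a doubling, and levels of different genes are not set against each other because each is read by its own probes.

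Background on the lineage helps to order the genes. Olig1 and Olig2 start the oligodendrocyte program and are also expressed in precursors. Sox10 acts through the whole lineage, and Myrf, which it induces, switches on myelin genes at the end of differentiation. Mature cells then make myelin proteins such as Mbp and the glycolipids galactosylceramide and sulfatide. In the hippocampus myelin is sparse in the cell layers and denser in the fimbria, the alveus and the white matter at its border.

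Promoters are shown for a few myelin genes, whose regulators Sox10 and Myrf are among the genes measured. Whether these regulators had a part in the values of the myelin genes was not tested. The 250 bases upstream of the annotated starts were read from RefSeq (GRCm38.p6), which gave 34 windows for 23 of the 34 genes. Genes without a window were Mbp, Sox10, Myrf, Olig1, Car2, Trf, Ndrg1, Fa2h, Cryab, Bcas1 and Evi2a. Each window is written 5′ to 3′ on the strand of its gene, and capitals mark the core letters of a SOX site, ACAAAG or its reverse complement CTTTGT, and of a Myrf site, CTGGCAC on either strand. They lie at chr9:120149492-120149741 on the plus strand for Mobp, at chr7:30914864-30915113 on the minus strand for Mag, at chr11:100574689-100574938 on the plus strand for Cnp and at chr19:41077114-41077363 on the minus strand for Opalin.
Mobp: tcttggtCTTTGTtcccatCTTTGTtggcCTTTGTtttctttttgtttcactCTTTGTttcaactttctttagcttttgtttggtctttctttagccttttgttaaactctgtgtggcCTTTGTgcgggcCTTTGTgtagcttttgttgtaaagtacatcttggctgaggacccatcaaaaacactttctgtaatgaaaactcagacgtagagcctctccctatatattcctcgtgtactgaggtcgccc
Mag: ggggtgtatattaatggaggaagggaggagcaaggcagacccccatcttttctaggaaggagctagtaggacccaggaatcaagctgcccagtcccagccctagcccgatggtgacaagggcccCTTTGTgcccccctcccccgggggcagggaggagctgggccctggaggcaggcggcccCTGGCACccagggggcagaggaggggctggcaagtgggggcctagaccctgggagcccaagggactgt
Cnp: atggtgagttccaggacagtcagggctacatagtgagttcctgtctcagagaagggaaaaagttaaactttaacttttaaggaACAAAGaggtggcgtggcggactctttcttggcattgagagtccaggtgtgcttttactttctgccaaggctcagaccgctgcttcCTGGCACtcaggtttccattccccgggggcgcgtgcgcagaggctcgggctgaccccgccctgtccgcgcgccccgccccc
Opalin: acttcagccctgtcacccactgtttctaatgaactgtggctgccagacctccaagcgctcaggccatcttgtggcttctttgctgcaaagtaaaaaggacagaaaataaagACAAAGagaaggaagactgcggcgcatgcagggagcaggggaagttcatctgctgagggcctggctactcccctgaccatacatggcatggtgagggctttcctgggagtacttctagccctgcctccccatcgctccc

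The window of Mobp held 6 matches to ACAAAG, and those of Mag, Cnp and Opalin held 1 each. The genes printed are among the 8 of 23 genes with ACAAAG in a window. No window without it is printed, so that those shown are not typical of the list. Windows of Mag and Cnp also held CTGGCAC, as did that of Hapln2. Of the 34 windows, 29.4% held ACAAAG, against 16.5% of the 32851 windows of all genes, and 11.8% held CTGGCAC, against 4.19%. The other forms searched were ACAATG (20.6% against 10.7%), CTGGTAC (2.94% against 1.83%), the E-boxes CAGCTG (11.8% against 13.0%) and CATCTG (23.5% against 14.4%), and TATAAA (8.82% against 12.4%), each on both strands. Some of these forms overlap in sequence, 6 of the 23 genes had more than 1 window, and some of their windows overlap, so that the shares are descriptions of the letters and not of binding.

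The comparison asked whether oligodendrocyte genes differ between amyloid-transgenic mice whose memory was called impaired and those whose memory was called intact. No oligodendrocyte or myelin gene passed the test. In the mice with impaired memory 27 of the 33 genes had lower and 6 had higher mean values, with a median difference of -0.063 on the log2 scale (impaired minus intact). Over all 14628 genes 52.9% were lower, with a median of -0.0083. This direction rested on single mice, since 14 of the 33 genes were lower without intact mouse 2, with a median of 0.020, and 16 without intact mouse 4, with a median of 0.0077. The values come from whole tissue, in which the number of oligodendrocytes, the RNA of each and the share of neighbouring tissue cannot be told apart.

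Differences ran from -0.28 for Opalin to 0.063 for Gal3st1, and the adjusted p was 0.961 or more for every gene (limma, Benjamini-Hochberg over all genes tested), where 0% of all genes passed. At an unadjusted p under 0.05 there were 0 of the 33 genes, where 4.68% of all genes lay, and the smallest p was 0.168, for Car2. The exact two-sided permutation test over the 70 relabellings of the mice gave p of 0.20 or more for each gene, where 0.0286 is the smallest it allows. The values of the groups overlapped for all 33 genes, while they did not overlap for 2.58% of all genes. The 95% intervals differed between genes, from -0.70 to 0.15 for Opalin, from -0.34 to 0.46 for Gal3st1 and from -0.34 to 0.15 for Qdpr.

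**Figure D1:**
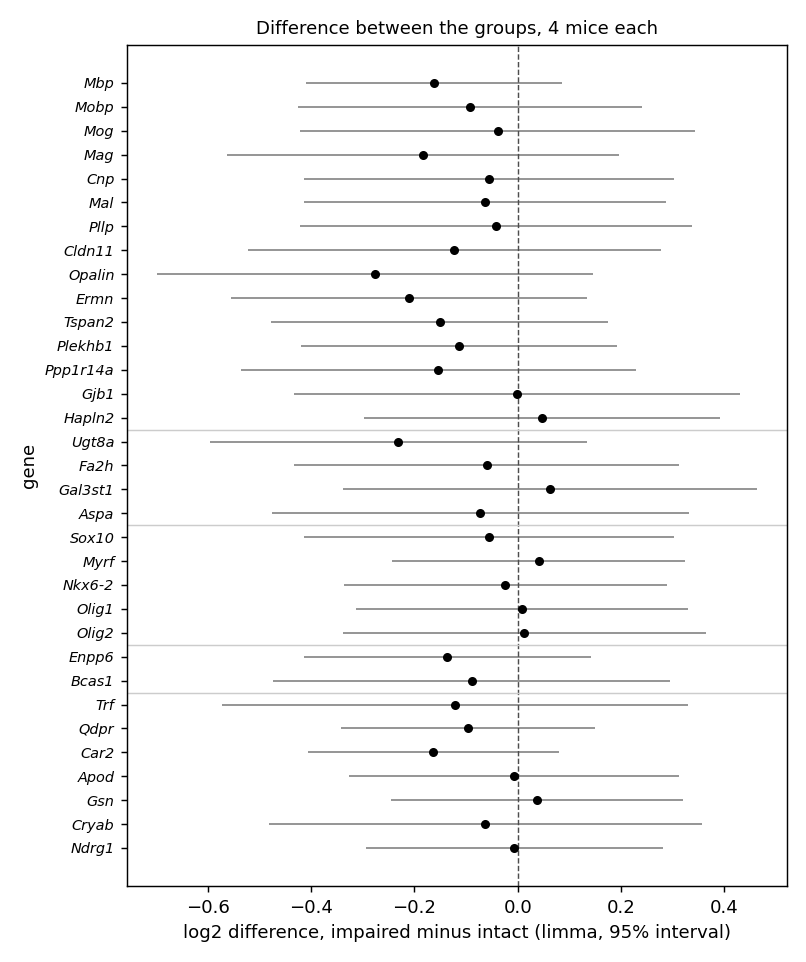
Log2 difference of each of the 33 genes (impaired minus intact, horizontal axis) with its 95% limma interval, 4 mice a group, ordered by role with grey lines between role groups. Points run from -0.28 for Opalin to 0.063 for Gal3st1, and every interval spans 0.

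Genes of the myelin sheath itself mostly had lower means in the impaired group. Of 15 genes for membrane and adhesion proteins, 14 were lower, with a median difference of -0.11, though Gjb1 by only -0.00038. Hapln2, a link protein of the matrix at nodes, was higher, at 0.047. Mog, Cnp, Mal, Pllp and Gjb1 turned higher without intact mouse 2, and also without intact mouse 4. For Mbp, the myelin basic protein that holds the layers of compact myelin together, the impaired mice 1 to 4 had 12.46, 12.67, 12.63 and 12.73 and the intact mice 12.75, 12.96, 12.50 and 12.92. Intact mice 1, 2 and 4 thus lay above every impaired mouse, and intact mouse 3 lay among the impaired mice. The difference was -0.16 with a standard error (SE) of 0.11 (12.62 ± 0.11 against 12.78 ± 0.21, SD, n = 4 each).

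Opalin, a membrane glycoprotein of mature oligodendrocytes, was 1.21-fold lower in the impaired group, with values of 7.72, 7.64, 7.98 and 8.26 against 8.02, 8.26, 7.76 and 8.67. The difference was -0.28 (SE 0.19), and impaired mouse 4 was level with intact mouse 2. Its mean of 8.04 lay just above 7.92, the 95th percentile of the array's intron probe sets, taken here as background. Impaired mice 1 and 2 and intact mouse 3 lay below that level. Mog, a protein of the outermost myelin layer and a target of autoantibodies, had close means in the groups. Its values were 8.47, 8.96, 9.15 and 8.84 in the impaired group and 8.76, 9.07, 8.52 and 9.22 in the intact group, a difference of -0.039 (SE 0.17). The lowest Mog values were those of impaired mouse 1 and intact mouse 3, and the highest those of intact mouse 4 and impaired mouse 3, so that each group held both extremes.

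Among the other sheath genes, the cytoskeletal protein Ermn differed by -0.21, Mag, which holds the sheath to the axon, by -0.18, the phosphatase inhibitor Ppp1r14a by -0.15 and the tetraspanin Tspan2 by -0.15. The tight junction protein Cldn11 differed by -0.12, the membrane-bound Plekhb1 by -0.11 and the compact myelin protein Mobp by -0.093. The proteolipids Mal and Pllp differed by -0.063 and -0.042, and Cnp, an enzyme of the uncompacted sheath, by -0.056. Gjb1, which encodes the gap junction protein connexin 32, had equal means of 7.28 in both groups but the widest range of all 33 genes, 2.20-fold between intact mouse 2 and intact mouse 3. The SE of these genes was 0.14 to 0.20.

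**Figure D2:**
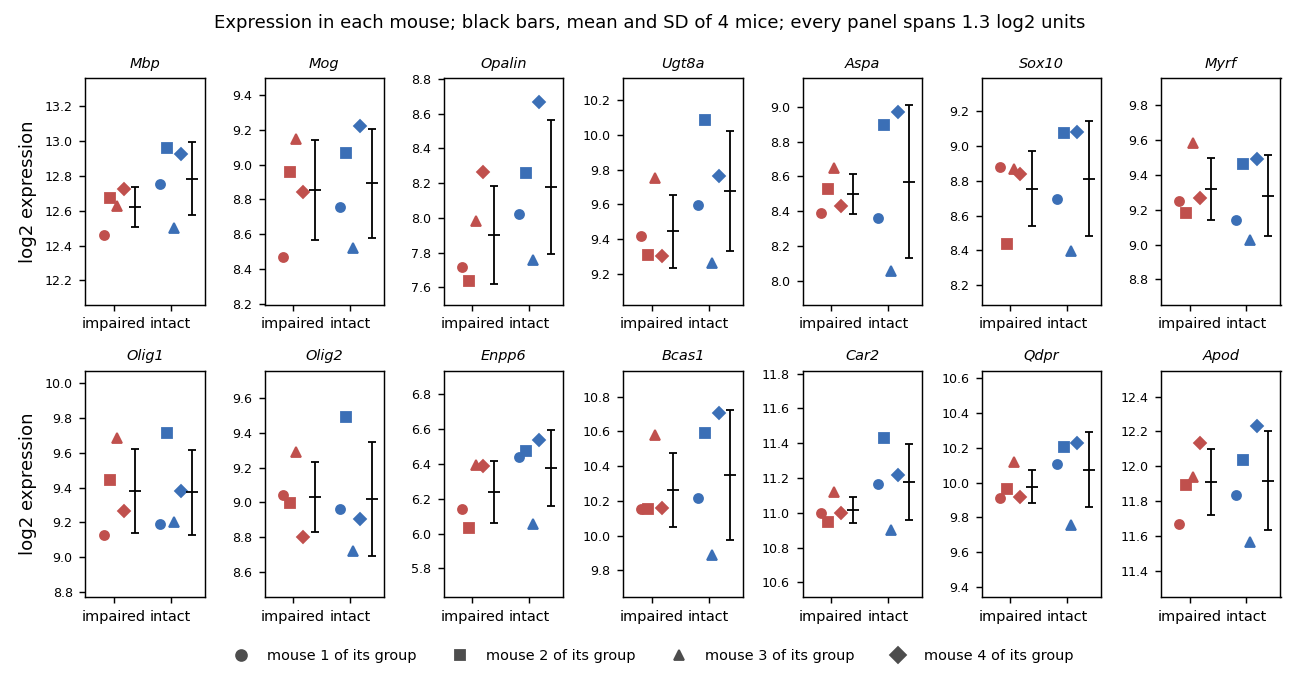
Log2 expression of 14 genes in each mouse, impaired in red and intact in blue, with 1 symbol shape per mouse number and black bars for the mean and SD of 4 mice; all panels span the same height. Groups overlap in every panel, and intact mouse 3 (blue triangle) is the lowest mouse for Ugt8a, Aspa, Sox10, Myrf, Olig2, Bcas1, Car2, Qdpr and Apod.

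Enzymes of myelin lipids had 3 of 4 genes lower in the impaired group, with a median of -0.066. Ugt8a makes galactosylceramide, the main glycolipid of myelin. It had 9.42, 9.31, 9.75 and 9.30 in the impaired mice and 9.60, 10.09, 9.26 and 9.76 in the intact mice, a difference of -0.23 (SE 0.17). Intact mouse 3 was the lowest of all 8 and intact mouse 2 the highest. Fa2h, which hydroxylates the fatty acids of these lipids, differed by -0.060, and Gal3st1, which turns galactosylceramide into sulfatide, by 0.063.

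Aspa splits N-acetylaspartate from neurons and so supplies acetate for lipid synthesis. Its impaired values were 8.39, 8.53, 8.65 and 8.43, and its intact values 8.36, 8.90, 8.06 and 8.97. The difference was only -0.072 (SE 0.18), but the spread was unequal, with an SD of 0.11 in the impaired and 0.44 in the intact group. All 4 impaired mice lay between the 2 lowest and the 2 highest intact mice.

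Transcription factors were not shifted in a common direction. Of 5 measured, 2 were lower and 3 higher in the impaired group, with a median of 0.0081, and differences ran from -0.056 for Sox10 to 0.041 for Myrf. Sox10 had 8.88, 8.43, 8.87 and 8.84 in the impaired group, where mouse 2 stood below the rest, and 8.69, 9.07, 8.40 and 9.08 in the intact group. Myrf had 9.25, 9.18, 9.58 and 9.27 against 9.14, 9.46, 9.03 and 9.49. For both genes the SE, 0.16 and 0.13, was larger than the difference.

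Olig2 had 9.04, 9.00, 9.29 and 8.80 in the impaired and 8.96, 9.49, 8.72 and 8.90 in the intact mice, and Olig1 had 9.13, 9.44, 9.69 and 9.27 against 9.19, 9.72, 9.20 and 9.38. Their means were nearly equal, at 9.03 and 9.02 for Olig2 and 9.38 and 9.37 for Olig1. Intact mouse 4, which was high for most of the 33 genes, stood below the mean of Olig2 and at the mean of Olig1. Nkx6-2, a homeodomain factor of myelinating cells, differed by -0.024 (SE 0.14).

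Enpp6 and Bcas1, which mark oligodendrocytes that have just begun to make myelin, were both lower in the impaired group, by -0.14 (SE 0.13) and -0.089 (SE 0.17). Enpp6 had 6.14, 6.03, 6.40 and 6.39 in the impaired and 6.44, 6.47, 6.05 and 6.54 in the intact mice. Its mean of 6.31 lay just above 6.30, the 75th percentile of the array's intron probe sets, taken here as background, so that its signal was near that background. Bcas1 had 10.15, 10.15, 10.58 and 10.16 against 10.21, 10.59, 9.89 and 10.71. Impaired mouse 3 stood with the high intact mice 2 and 4, and intact mouse 3 stood alone at the bottom.

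Of 7 further genes that oligodendrocytes express strongly, 6 were lower in the impaired group, with a median of -0.063. Car2, a carbonic anhydrase, had the smallest p of all 33 genes and a difference of -0.16 (SE 0.11). Its values were 11.00, 10.95, 11.12 and 11.00 in the impaired group and 11.17, 11.43, 10.90 and 11.22 in the intact group. As for Mbp, the intact mice 1, 2 and 4 lay above all impaired mice. For Car2 intact mouse 3 lay below all of them.

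Qdpr, which regenerates tetrahydrobiopterin, had 9.91, 9.96, 10.12 and 9.92 against 10.11, 10.20, 9.76 and 10.22, a difference of -0.096. Apod, a lipid carrier, had 11.67, 11.89, 11.94 and 12.13 against 11.83, 12.03, 11.56 and 12.23, a difference of -0.0072. Here impaired mouse 4 was second to intact mouse 4. Trf, the iron carrier transferrin, differed by -0.12, the small heat shock protein Cryab by -0.063, Ndrg1, a gene of myelin maintenance, by -0.0066 and the actin-severing protein Gsn by 0.037. Trf and Cryab spanned 2.09-fold and 2.08-fold between the lowest and the highest mouse, in each case intact mouse 3 and intact mouse 2.

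The 33 genes varied more between single mice than the median gene tested. Their SD over all 8 mice had a median of 0.26, against 0.15 for all genes tested, and was above that value for all 33. Between the lowest and highest mouse they ranged from 1.38-fold (Qdpr) to 2.20-fold (Gjb1), with a median of 1.67-fold. The spread lay mostly within the intact group. Its SD exceeded that of the impaired group for 32 of 33 genes, all but Gsn, while this held for 48.9% of all genes tested. The median SD of the 33 genes was 0.32 in the intact and 0.20 in the impaired group, against 0.14 in each group over all genes.

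The same mice stood high or low for nearly every gene, which also means that the 33 genes are not independent observations. Intact mouse 3 was the lowest mouse for 24 of the 33 genes, against 13.4% of all genes, and lay below the gene's mean for all of them. The highest mouse was intact mouse 2 for 17 genes, intact mouse 4 for 12 and impaired mouse 3 for the other 4. Intact mice 2 and 4 lay above the mean for 33 and 32 genes and impaired mouse 3 for 30. Averaged over the 33 genes, the deviation of a mouse from each gene's mean was -0.19, -0.093, 0.17 and -0.036 in impaired mice 1 to 4 and -0.038, 0.31, -0.35 and 0.23 in intact mice 1 to 4. Intact mouse 2 thus exceeded intact mouse 3 by 1.24-fold (Gsn) to 2.20-fold (Gjb1).

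**Figure D3:**
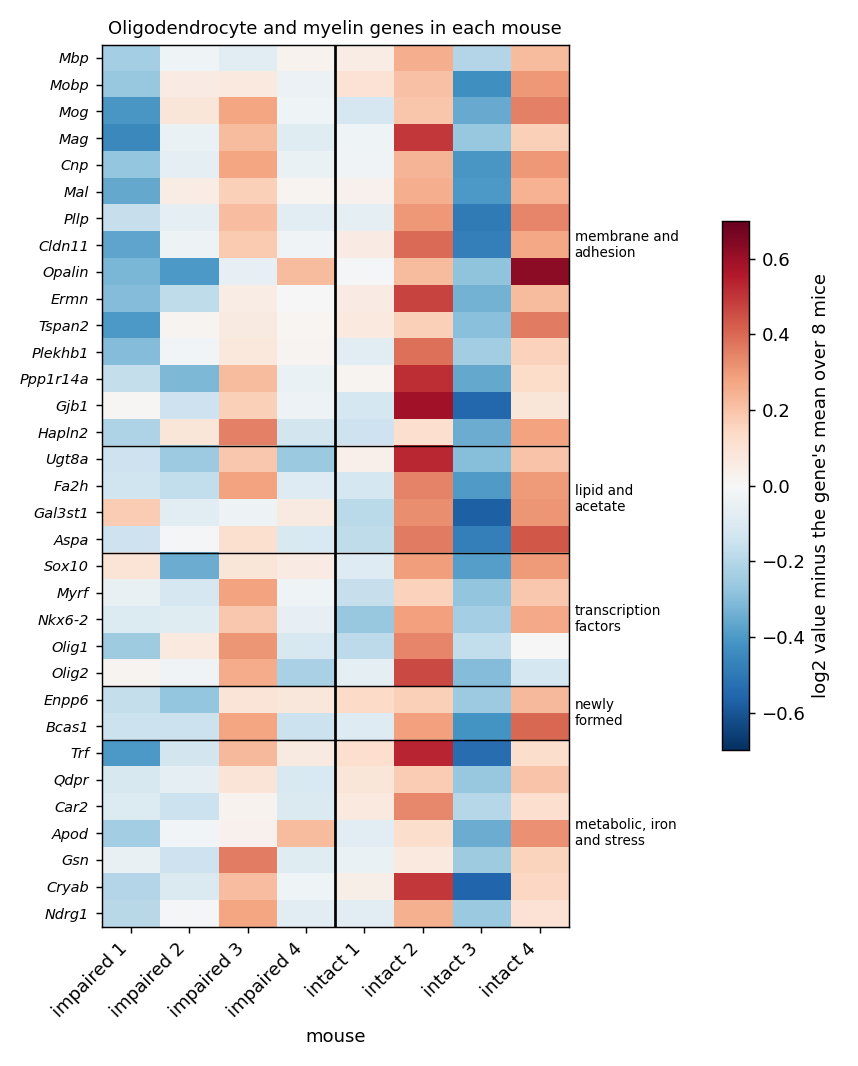
Log2 value of each of the 33 genes (rows, by role) in each mouse (columns, the black line parts impaired from intact) minus the mean of that gene over 8 mice, on a colour scale from -0.7 (blue) to 0.7 (red). Columns of intact mice 2 and 4 and impaired mouse 3 are mostly red, that of intact mouse 3 is blue throughout, and that of impaired mouse 1 is darkest blue for sheath genes and Trf.

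Role groups did not follow each mouse equally. In impaired mouse 1 the sheath proteins deviated by -0.28 on average, but the lipid enzymes by -0.061 and the transcription factors by -0.057, and Gal3st1 and Sox10 lay above their means there by 0.18 and 0.10. Impaired mouse 1 was the lowest of all mice for Mbp, Mog, Mag, Tspan2, Plekhb1 and Olig1. In intact mouse 3 the same 3 role groups deviated by -0.36, -0.44 and -0.27. In intact mouse 4 the sheath proteins and lipid enzymes deviated by 0.27 and 0.31 and the transcription factors by 0.13. These are values of single arrays, and differences between role groups within a mouse were not tested.

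**Figure D4:**
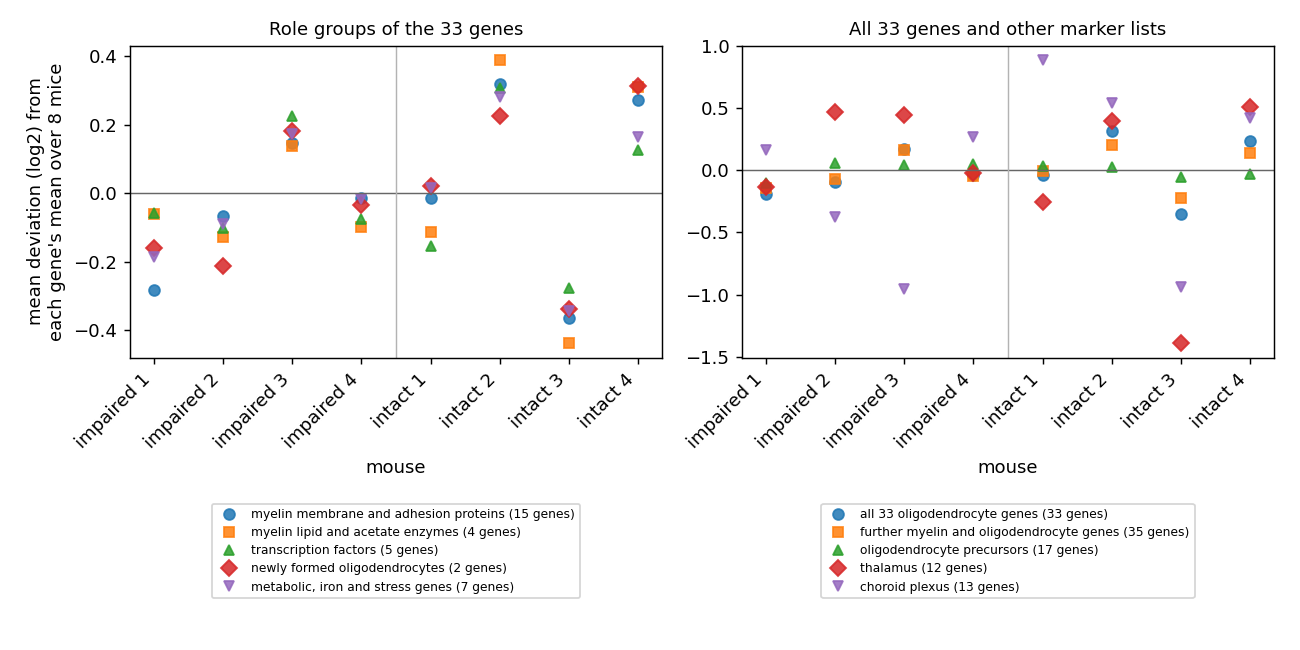
Mean deviation (log2) of gene lists from each gene's mean over 8 mice, by mouse, with the number of genes in the legend; left, the 5 role groups; right, all 33 genes beside other lists, on a wider vertical scale. Intact mouse 3 is at -0.35 for the 33 genes and at -1.39 for thalamus markers. The mean of the oligodendrocyte precursor genes, of which 9 of 17 lay above the 95th percentile of the intron probe sets, stays between -0.11 and 0.058.

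Intact mouse 3 also stood apart in markers of neighbouring tissue. Of the 12 genes listed for the thalamus, which borders the hippocampus, all 12 were tested and 9 lay above the 95th percentile of the intron probe sets. Their mean level was 8.64 to 9.25 in the impaired mice and 7.39 to 9.28 in the intact mice. The deviation of these markers was -1.39 in intact mouse 3 and -0.14, 0.47, 0.45, -0.021, -0.26, 0.39 and 0.50 in impaired mice 1 to 4 and intact mice 1, 2 and 4. Shox2, a thalamic transcription factor, stood at 4.39 in intact mouse 3 and at 6.55 to 7.83 in the others. The 3 mice with the highest oligodendrocyte values were thus among the 4 with thalamus markers well above their mean, and impaired mouse 2 was the fourth, with oligodendrocyte genes at -0.093. Choroid plexus markers had 13 of 14 tested, of which 4 lay above the 95th percentile of the intron probe sets. Their mean levels were 6.71 to 7.93 in the impaired and 6.73 to 8.55 in the intact mice. They deviated by -0.96 in impaired mouse 3, -0.93 in intact mouse 3 and 0.89 in intact mouse 1. Hippocampal neuron markers, with 12 of 14 tested, ran opposite to the thalamus markers in intact mice 2, 3 and 4. They were at 0.17 in intact mouse 3, their highest, -0.083 in intact mouse 2 and -0.095 in intact mouse 4. In impaired mice 1 and 3 they had the same sign as the thalamus markers, at -0.054 and 0.036. In impaired mice 2 and 4 and intact mouse 1 the signs differed, with the neuron markers at -0.078, 0.078 and 0.026. The part of these markers in the pattern between mice was not tested.

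The group comparison of the 33 genes depended on which of these mice were included. Intact mouse 3 lay below the mean for all 33 genes, so that leaving it out lowers every difference (impaired minus intact) by arithmetic. Without it, all 33 genes were lower in the impaired group, against 53.2% of all genes, with a median of -0.21. Then 7 of the 33 (Ermn, Car2, Mbp, Ugt8a, Mobp, Opalin and Qdpr) had an unadjusted p under 0.05, against 5.11% of all genes, and none passed the adjustment (limma, smallest adjusted p of the 33 genes 0.925). Ermn and Opalin then differed by -0.36 and -0.42. Without intact mouse 2 or intact mouse 4 only 14 and 16 genes were lower. Without impaired mouse 3, 32 were lower, with a median of -0.14, and without impaired mouse 1 there were 20, with a median of -0.020.

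With the thalamus markers of each mouse as a covariate, all 33 genes were lower in the impaired group, against 53.8% of all genes, with a median of -0.21, and 13 had an unadjusted p under 0.05, against 5.48% of all genes. With choroid plexus and thalamus markers together these were 32 genes, against 53.4%, with a median of -0.22, and 8 genes, against 4.38%. Ugt8a, Ermn, Cldn11, Tspan2, Aspa, Mag and Bcas1 were among the genes with such a p in both fits. None passed the adjustment in either (limma, smallest adjusted p of the 33 genes 0.891 and 0.999). Most of the range of the thalamus covariate comes from intact mouse 3, so that this fit and the comparison without that mouse are not separate from each other. That mouse was low for every one of the 33 genes, so that neither adds evidence to the comparison of all mice. The fit with both lists holds the same thalamus covariate and fits more terms to the same 8 mice. All 13 plexus markers were themselves lower in the impaired group, so that this fit adds no separate evidence either.

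**Figure D5:**
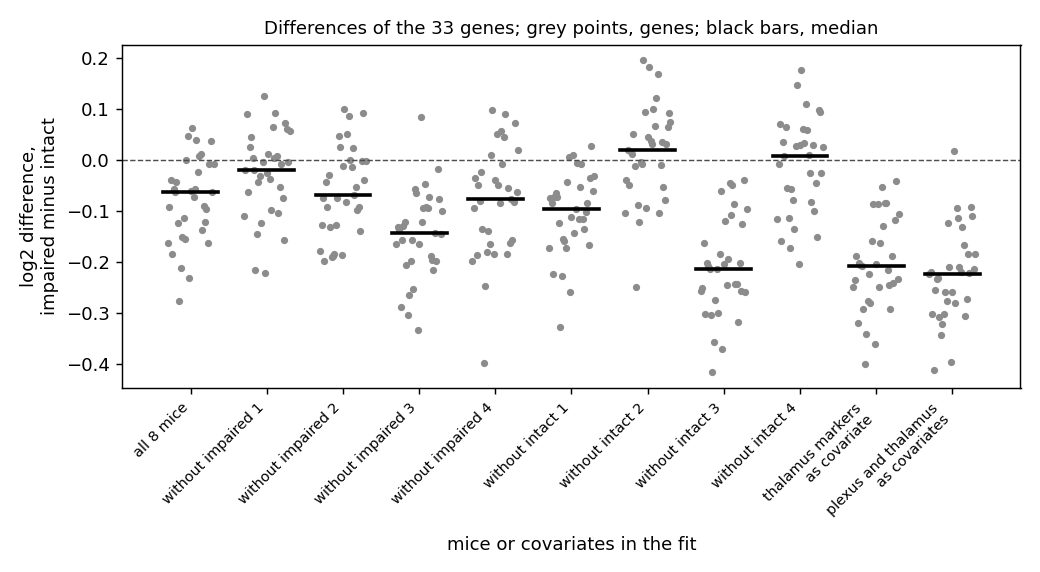
Log2 difference (impaired minus intact, vertical axis) of each of the 33 genes (grey points) and their median (black bar) with all 8 mice, without each mouse in turn and with marker lists as covariates. The median is -0.063 with all mice, -0.21 without intact mouse 3 and 0.020 without intact mouse 2.

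Other genes of the lineage were compared as lists. Of 36 further myelin and oligodendrocyte genes, 35 were tested, of which 25 were lower and 10 higher in the impaired group, with a median of -0.068 and none at an unadjusted p under 0.05. The smallest p were those of Carns1, an enzyme of carnosine synthesis, at -0.19 (SE 0.11), and the adaptor Pacsin3, at 0.20 (SE 0.12). These 35 genes deviated by -0.23 in intact mouse 3 and by 0.20 in intact mouse 2, as the 33 genes also did, by more.

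Of 20 genes listed for oligodendrocyte precursors, 17 were tested, and 8 were lower and 9 higher in the impaired group, with a median of 0.015. Their mean deviation lay between -0.11 in impaired mouse 1 and 0.058 in impaired mouse 2, and its difference from that of the 33 genes was not tested. Of the 17 genes, 9 lay above the 95th percentile of the intron probe sets, against 30 of the 33 genes, so that dim signal limits this comparison. Gpr17, a receptor of precursors that are about to differentiate, had 7.51, 7.61, 7.72 and 7.34 in the impaired and 7.39, 7.16, 7.18 and 7.24 in the intact mice. The difference was 0.30, SE 0.099 and adjusted p 0.961 in limma, and impaired mouse 4 lay below intact mouse 1. All values of Gpr17 lay below that percentile, 7.92. Vcan, a proteoglycan of precursors, differed by 0.18 (SE 0.090). Genes of the nodes of Ranvier, where 14 were tested, had 9 lower and 5 higher, with a median of -0.020, and Gldn and Bcan had the smallest p, at -0.14 and 0.10.

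Lists of other cells gave the setting. Schwann cells, which make peripheral myelin, had 5 of 9 genes tested, with 2 lower and 3 higher, and Cdh19 and Egr2 differed by -0.42 and 0.24. Cdh19 lay below 6.30, the 75th percentile of the intron probe sets, in all mice but intact mouse 4, at 6.94. Egr2 stood at 8.90 in impaired mouse 1 and at 7.69 to 8.26 in the others. Pmp2, a protein of peripheral myelin, had values of 3.11 to 3.72, below the filter on dim genes at 5.33, and Gfra3 lay there too, at 3.89 to 4.73. Astrocyte markers had 4 of 10 lower (median 0.010, with S100b and Aldh1l1 at 0.12 each) and microglial markers 3 of 9 (median 0.0087, with Sall1 at -0.094 and Olfml3 at 0.14). Endothelial markers had 8 of 10 lower (median -0.052, with Tek and Cldn5 at -0.41 and -0.22). Hippocampal neuron markers had 7 of 12 lower (median -0.059, with Wfs1 at 0.25 and Rbfox3 at -0.18), and 10 of these 12 lay above the 95th percentile of the intron probe sets. In the list for the thalamus all 12 were higher, with Gbx2 and Shox2 at 0.46 and 0.79. That list deviated by -1.39 in intact mouse 3, against -0.26, 0.39 and 0.50 in intact mice 1, 2 and 4 and -0.14 to 0.47 in the impaired mice. Its group difference thus leaned on 1 array. In the list for the choroid plexus all 13 were lower, with Kl and F5 at -0.66 and -0.75, and 4 of the 13 lay above that percentile. No gene of these lists passed the adjustment (limma), and the part of other cells and tissues in the values of the oligodendrocyte genes was not tested beyond the fits with thalamus and plexus markers.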

How the data were processed

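Total RNA from the hippocampi of 8 mice was made into sense cDNA, fragmented, biotinylated and hybridised to 1-colour Affymetrix arrays, 1 per mouse, per the labels' protocols. The deposited values are log2 values that the authors made with RMA, per the submitters' processing notes. RMA subtracts background, makes the distributions of the arrays equal and combines the probes of a set, and it compresses differences of dim genes. No software version and no genome build is given in the sources used here. Of 29129 probe sets, 22206 read targets and not controls. Of these, 19572 had 1 gene symbol in the platform's table, 0 had several and 2634 were not named. The 25% of genes with the lowest mean were left out (floor 5.33). Arrays had medians of 7.75 to 7.79 over genes tested, and their number limits the precision.

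Groups were compared with limma 3.58.1 in R 4.3.3 across all 14628 genes, two-sided. The procedure was also run on simulated data with independent genes and changes larger than any difference reported for the oligodendrocyte genes. That run does not show whether changes of their size would be found. Single genes also had an exact permutation test. The genes, role groups and lists were chosen with earlier results of these data known. All measured genes of the list are named. Values of every mouse are given for the 2 genes with the smallest p and the gene with the highest mean of each role group, and for Mbp, Mog, Olig2 and Sox10, and of each other list the 2 genes with the smallest p are named. Same-numbered mice of the groups did not deviate together across genes (correlations of -0.10 to 0.033). Alternatives were no filter, an intensity trend, quantile normalization, the mean of all probe sets, a block, covariates and leaving out each mouse.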

Additional observations from a re-analysis of the deposited data

Results flagged for a closer look

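In each group of 4 mice, each gene was searched for a value at the edge whose gap to the nearest mouse, as a share of the range of the group, passed the tabled 95% limit of Dixon's test. Over 66 such groups (33 genes, both groups) 4 were found, and chance gives about 1 in 20 groups. All 4 lay in the impaired group. In impaired mouse 3, Bcas1 was 10.58, against 10.15 to 10.16 in the other impaired mice, and Nkx6-2 was 8.83, against 8.54 to 8.58. Impaired mouse 2 had Sox10 at 8.43, below 8.84 to 8.88 in the others. Impaired mouse 1 had Tspan2 at 9.39, below 9.80 to 9.86.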

How the results depend on the processing

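None of the 33 genes passed the adjustment under any alternative. Over all genes tested, 0 passed, except 1 gene, which is not among the 33, when limma's prior was robust and followed intensity. The count of lower genes was 27 with all mice and 14 to 33 without 1 mouse, and 25 to 33 under the other settings. The count at an unadjusted p under 0.05 was 0 with all mice, 0 to 7 without 1 mouse, 13 with the thalamus markers and 8 with plexus and thalamus markers as covariates. The median difference was -0.063 with all mice and ran from -0.22 with both lists as covariates to 0.020 without intact mouse 2, and it was also above 0 without intact mouse 4, at 0.0077. With the replicate number as a block it was -0.063 too, and all other calls were unchanged by the block, whose numbers do not pair the mice.

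Of the 33 genes, 13 kept their direction without each mouse in turn and 20 did not. The latter ranged as follows: Mog from -0.16 to 0.090, Cnp from -0.20 to 0.036, Mal from -0.21 to 0.046, Pllp from -0.21 to 0.065, Gjb1 from -0.18 to 0.20, Hapln2 from -0.063 to 0.15, Fa2h from -0.20 to 0.045, Gal3st1 from -0.12 to 0.18, Aspa from -0.24 to 0.061, Sox10 from -0.19 to 0.051, Myrf from -0.047 to 0.11, Nkx6-2 from -0.12 to 0.068, Olig1 from -0.094 to 0.12, Olig2 from -0.086 to 0.17, Bcas1 from -0.24 to 0.030, Trf from -0.32 to 0.036, Apod from -0.12 to 0.098, Gsn from -0.077 to 0.095, Cryab from -0.26 to 0.093, Ndrg1 from -0.10 to 0.075. With the thalamus markers as a covariate the direction also turned for Hapln2 -0.086, Gal3st1 -0.085, Myrf -0.052, Olig1 -0.083, Olig2 -0.083, Gsn -0.041, and with both lists for Hapln2 -0.21, Myrf -0.11, Olig1 -0.22, Olig2 -0.13, Gsn -0.11. After a further quantile normalization it turned for Apod 0.025, Ndrg1 0.024. The cause was not tested. Signal over background limits Enpp6, Gal3st1 and Gjb1, whose means lay below the 95th percentile of the intron probe sets, 7.92. Opalin, with a mean of 8.04, lay just above it.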

Other observations

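A list of genes of reactive oligodendrocytes had 7 of 10 genes higher in the impaired group, with a median of 0.048, and 3 lower, where 52.9% of all genes tested were lower. At an unadjusted p under 0.05 there were 2 of the 10, against 4.68% of all genes. B2m, the light chain of MHC class I, had 11.38, 11.57, 11.73 and 11.53 in the impaired and 11.16, 11.41, 10.86 and 11.32 in the intact mice, a difference of 0.36 (SE 0.13, limma's adjusted p 0.961). The complement gene C4b had 9.59, 9.50, 9.58 and 9.61 against 9.38, 9.02, 9.20 and 9.54, a difference of 0.29. Other cells express these genes too, and their source was not tested. The list deviated by -0.38 in intact mouse 3, against -0.0085, 0.20 and 0.036 in intact mice 1, 2 and 4. In the impaired mice it deviated by -0.12 to 0.17. The direction of the list as a whole thus leaned on 1 array, and it was not tested without that mouse.

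Cholesterol is a main lipid of myelin. Of 18 genes of its synthesis 16 were tested, and 6 were lower and 10 higher in the impaired group, with a median of 0.042. For Dhcr7, an enzyme late in the pathway, the groups did not overlap, at 9.35, 9.14, 9.12 and 9.16 against 8.93, 8.82, 8.99 and 9.01, a difference of 0.25 (SE 0.084, limma's adjusted p 0.961). Groups did not overlap for 2.58% of all genes tested, and Dhcr7 is named for the smallest p of its list. The exact permutation test gave p = 0.0286, the smallest that 70 relabellings allow. Msmo1 differed by 0.14. The 16 genes deviated by 0.028 in intact mouse 3 and by -0.065 in intact mouse 2.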
